A study of Mus musculus with 3 samples.

Results

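The proteasome genes of mouse embryonic stem (ES) cells were followed over the first days after loss of Oct3/4. They were taken by symbol from the array annotation, as every gene named Psma, Psmb, Psmc or Psmd with a number, and 36 of the 18193 genes that have a probe set of their own met this rule. Psmb8, Psmb9 and Psmb10, the subunits of the immunoproteasome, were left out of it. Of the 36 genes, 16 encode subunits of the core particle and 17 encode subunits of the regulatory particle. The other 3, Psmd5, Psmd9 and Psmd10, carry the family name but encode chaperones that help to assemble the base of the regulatory particle and leave it afterwards, so the name proteasome subunit covers 33 of the 36 genes. The cells were ES cells with a conditional knockout of Pou5f1, Pou5f1 being the gene of the pluripotency factor Oct3/4, and all groups share this genotype. Total RNA was hybridised to 1 Affymetrix array at day 0, 1 at day 1 and 1 at day 2. The labels name no agent that induced the knockout and no cell clone, and no array from cells without the knockout was analysed at day 1 or day 2, so loss of Oct3/4 and time in culture cannot be told apart. With 1 array per day there are no replicates and no test, and all values describe these arrays.

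The proteasome degrades proteins that were tagged with ubiquitin chains. Its core particle is a barrel of stacked rings, the outer ones made of alpha subunits, which form the gate, and the inner ones of beta subunits, which hold the proteolytic sites on the inside. The regulatory particle caps the barrel. Its base holds a ring of ATPases that unfold the substrate and thread it into the core, and its lid holds the enzyme that removes the ubiquitin chain. Most subunits are present in a fixed ratio in the particle, and their genes are expressed in nearly all cell types. ES cells are known for high proteasome activity.

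The promoters of 3 genes whose products carry out the chemistry are shown first, those of the catalytic subunit genes Psmb5 and Psmb6 and of the deubiquitinase gene Psmd14. The sequences are RefSeq promoters of mouse build GRCm38.p6, each from 250 bases before to 50 bases after the transcription start. Psmb5 lies on the minus strand at chr14:54617946-54618245, Psmb6 on the plus strand at chr11:70525107-70525406 and Psmd14 on the plus strand at chr2:61711444-61711743. Capitals mark matches on either strand to CCAAT, the box bound by NF-Y, to TGACNNNGC, the core of the element bound by Nfe2l1 and Nfe2l2, or to GGGCGG, the GC box bound by Sp1. Matches may overlap.
Psmb5: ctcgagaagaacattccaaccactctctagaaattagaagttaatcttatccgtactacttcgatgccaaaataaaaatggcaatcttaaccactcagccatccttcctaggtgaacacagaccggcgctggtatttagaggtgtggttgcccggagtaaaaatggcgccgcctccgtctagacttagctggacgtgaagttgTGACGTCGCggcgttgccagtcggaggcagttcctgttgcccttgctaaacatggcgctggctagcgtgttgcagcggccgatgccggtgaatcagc
Psmb6: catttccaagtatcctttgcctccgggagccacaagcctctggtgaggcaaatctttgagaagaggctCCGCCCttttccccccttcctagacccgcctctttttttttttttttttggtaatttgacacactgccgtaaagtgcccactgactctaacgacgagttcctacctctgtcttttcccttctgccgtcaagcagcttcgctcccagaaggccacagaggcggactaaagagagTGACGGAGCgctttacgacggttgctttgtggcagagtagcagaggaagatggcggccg
Psmd14: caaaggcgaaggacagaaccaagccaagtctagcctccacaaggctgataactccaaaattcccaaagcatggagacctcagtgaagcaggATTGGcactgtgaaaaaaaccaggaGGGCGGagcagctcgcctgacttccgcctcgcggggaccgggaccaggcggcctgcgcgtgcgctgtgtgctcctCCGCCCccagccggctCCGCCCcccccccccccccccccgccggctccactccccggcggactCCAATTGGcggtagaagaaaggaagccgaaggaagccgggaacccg
The Psmb5 promoter holds 1 TGACNNNGC match, 47 bases before the start, and no match to the other marked motifs. The Psmb6 promoter holds the same motif 9 bases before the start and 1 GC box. Psmd14 has 3 CCAAT matches, 2 of which overlap just after the start, and 3 GC boxes. Of the 36 genes, 29 were matched in the promoter table. Psma8, Psmb1, Psmb2, Psmb7, Psmc3, Psmd3 and Psmd7 were not. CCAAT was found in 12 of the 29 promoters (41.4%), beside 42.9% of the promoters of all genes measured and 41.1% of all promoters in the table. TGACNNNGC was in 5 (17.2%), beside 16.8% and 14% in the same order, and the GC box in 18 (62.1%), beside 67.7% and 38.2%. The octamer ATGCAAAT, the motif that Oct3/4 binds through its POU domain, was in 1 of the 29, that of Psmd13 (3.45%), beside 1.5% of the genes measured. TATAAA was in 3 (10.3%), beside 9.08%. These shares lie near those of all genes measured, and a match describes letters, not a bound site.

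The arrays were on 1 scale, with a trimmed mean signal of 498 on each, and the median signal ran from 83.5 to 92.5. Precision is limited by having 3 arrays. Differences are given as log2(signal + 55.9), where the constant damps noise at dim probe sets and makes their differences smaller. A probe set, the group of short probes for a transcript, was kept when its mean signal reached this constant. That left 12717 genes, and a gene is represented by its brightest kept probe set. The Pou5f1 signal was 2400 on the day 0 array, 40.8 on the day 1 array and 15.5 on the day 2 array. Whether its probes lie in the deleted part of the gene is not given in the labels. The day 0 array carried the defining ES cell markers, with a summed signal of 107707 over 8 genes (Pou5f1 is 1 of them), 64917 at day 1 and 21899.6 at day 2. Dppa5a gave 35755, 28534 and 11927 of these sums in the order of the days. At day 1, 5 of the 8 were at least 2-fold lower than at day 0, beside 2.59% of all genes measured. Nanog was nearly level at day 1, with 14073, 13256 and 4585. The 8 trophectoderm markers summed to 7976, 12649 and 53768 in the order of the days. Most of the day 2 sum came from the keratin genes Krt8, at 18358, and Krt18, at 24609.8. Eomes went the other way at day 2, with 381, 844 and 295, and Cdx2 (152, 856 and 828) and Hand1 (494, 1722 and 1262) were highest at day 1. Of 8 fibroblast markers, which would show feeder cells, 5 were below the constant, among them Col1a1, Col3a1 and Dcn. All 8 together summed to 703, 655 and 478. Thy1, a surface marker that is not particular to fibroblasts, gave 400, 275 and 89.3 of this. The other measured markers were higher on the later days, Pdgfrb with 60.8, 144 and 123 and Col1a2 with 96.8, 102 and 127. The part of these changes in cell state in any difference given here was not tested. In bulk RNA, fewer cells of a type and less RNA per cell cannot be told apart.

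Of the 36 genes, 35 were measured, and 34 of them stayed within 1.5-fold in each of the 3 comparisons between days. Of all genes measured, 83.1% did so at day 1 and 73.6% at day 2, both against day 0, and 84.1% from day 1 to day 2. The comparisons share arrays, so they are not independent. The exception was Psma8. The unmeasured gene was Psmb11, whose product takes the place of the Psmb5 product in the thymus. Its signals of 61.1, 10.7 and 34.3, in the order of the days, averaged below the constant. At day 2 against day 0, 1 of 35 genes was at least 2-fold lower, where 5.65% of all genes measured were, and 0 were at least 2-fold higher, where 5.25% were. At 1.5-fold the counts were again 1 lower and 0 higher, beside 11.8% and 14.6% of all genes. Day 1 against day 0 gave 0 genes at least 2-fold lower and 0 higher, beside 2.59% and 2.4%, and at 1.5-fold 1 lower and 0 higher, beside 7.29% and 9.62%. From day 1 to day 2, 1 gene was at least 2-fold lower and 0 higher, beside 2.65% and 2.09%, and the counts at 1.5-fold were again 1 and 0, beside 8.79% and 7.1%.

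**Figure D1:**
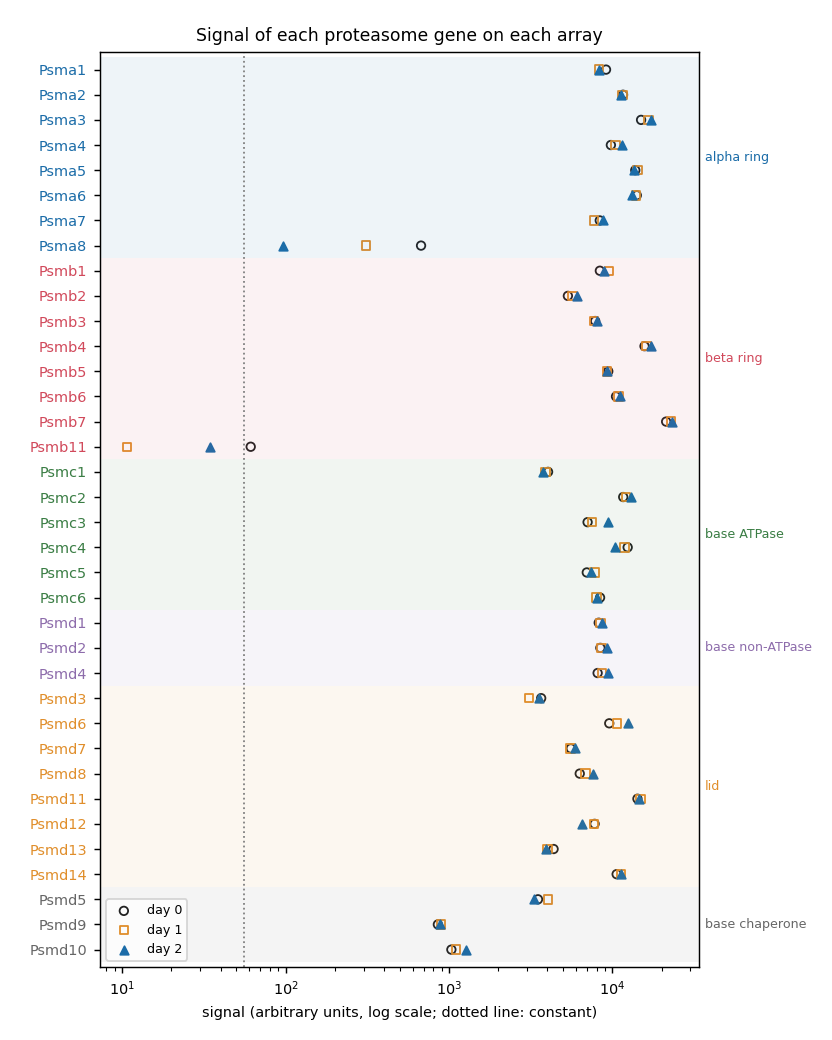
Signal of each proteasome gene (horizontal log axis, arbitrary units) at day 0 (circles), day 1 (squares) and day 2 (triangles), 1 array each, with the genes ordered by role and the constant as a dotted line. The symbols of a gene nearly coincide except for Psma8, which goes from 674 to 95.9, and Psmb11, which is above the constant at day 0 only. Signals of different genes come from different probes and are not comparable in level.

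The median difference of the 35 genes was 0.04 between day 0 and day 1 (95% interval over the genes −0.01 to 0.09). It was 0.07 between day 0 and day 2 (−0.03 to 0.11) and 0.02 from day 1 to day 2 (−0.02 to 0.08). The medians of all genes measured were 0.04, 0.05 and 0.00 in the same order. The range that holds their middle 50% was 0.20 wide at day 2 against day 0, and that of all genes was 0.64 wide. Some other complexes were as narrow. The width was 0.20 for the COP9 signalosome, 0.13 for the CCT chaperonin, 0.16 for eIF3 and 0.14 for the cytosolic ribosomal proteins. The mitochondrial ribosomal proteins were wider, at 0.34. Within 1.25-fold at day 2 were 32 of 35 genes (91.4%), beside 50.1% of all genes measured. In the narrow complexes 88.9% to 100% of the genes were, and of the mitochondrial ribosomal proteins 64.5%. Bright probe sets give tighter differences on any array, and 32 of the 35 genes were among the brightest 20% of genes. Among genes of that brightness 61.6% stayed within 1.25-fold, and 30 of these 32 did. At day 1 all 32 were within 1.25-fold, beside 76.3% of the bright genes, and so were 34 of all 35, beside 61.6% of all genes measured. The cut at 1.25-fold and the bright genes were chosen after values had been seen. The files give 1 error, the pooled SD between probe sets of the same gene, which over 5906 genes was 0.30 at day 1 and 0.34 at day 2, relative to the day 0 array. This SD holds the error of the probes and nothing of the spread between cultures. At day 2, 32 of the 35 genes differed from day 0 by no more than this SD, beside 52.7% of all genes, and the others were Psma8, Psmc3 and Psmd6. Among the bright genes 64% stayed within this SD, as did 30 of the 32. The SD between probe sets of the same proteasome gene was smaller, 0.15 at day 2, at mean signals of 1000 or more.

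**Figure D2:**
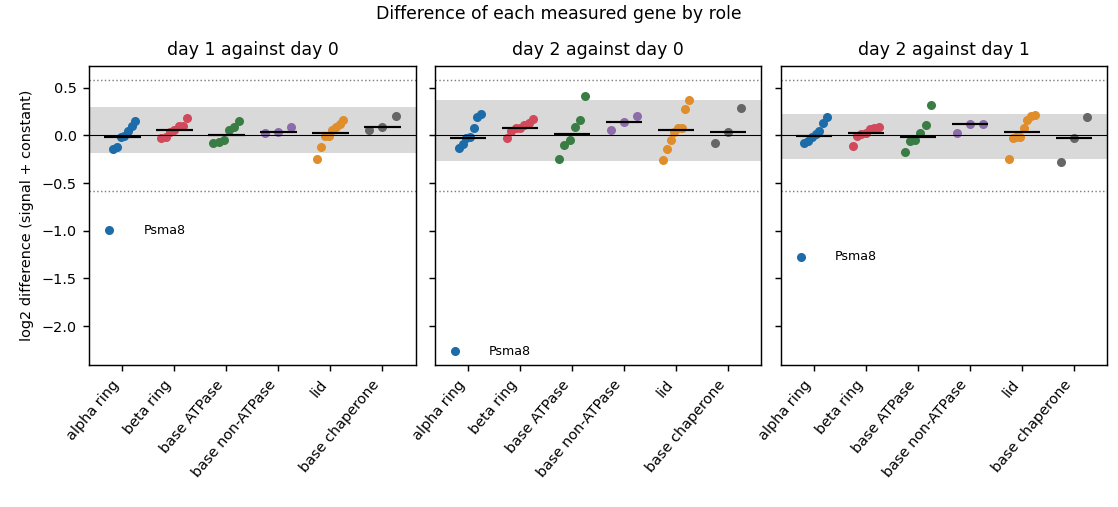
Log2 difference of each measured proteasome gene (points) by role for the 3 comparisons, with the median of each role as a black bar, the middle 50% of all genes measured in grey and 1.5-fold as dotted lines. All points lie inside the dotted lines but Psma8, at −0.99, −2.27 and −1.27.

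In the core particle, Psma1 to Psma7, the alpha subunit genes of the standard core, were between −0.15 and 0.15 at day 1 and between −0.13 and 0.23 at day 2. Their median was −0.01 at day 1 and −0.02 at day 2. Psma4 was the highest of them at day 2, with signals of 9776, 10449 and 11463 at days 0, 1 and 2, a difference of 0.23. Psma3 was similar, with 14961, 16630.2 and 17115, or 0.19. Psma1 was the lowest at 9129.6, 8246 and 8311, or −0.13. By these probe sets day 0 was the lowest day and day 2 the highest in Psma4 and Psma3, while in Psma1 day 0 was the highest. Dim probe sets had other orders, with 280, 254 and 303 for Psma3. For Psma1 they had 181, 143 and 191, and 53.7, 76.8 and 49.4, so the order is not settled in these genes. Psma2 (−0.03), Psma5 (−0.02), Psma6 (−0.09) and Psma7 (0.07) completed the ring at day 2. All of these are smaller than the probe set SD of 0.34 over all genes. The pooled SD between probe sets of the same proteasome gene, at mean signals of 1000 or more, was 0.15, and Psma4 and Psma3 exceeded it.

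Psma8 encodes an alpha subunit that takes the place of the Psma7 product in the proteasomes of male germ cells. Its signal was 674 on the day 0 array, 311 a day later and 95.9 at day 2. Each later day was lower than the one before, and the day 2 signal was still above the constant. The difference was −0.99 at day 1, which is 1.99-fold lower, and −2.27 at day 2, or 4.81-fold lower, with −1.27 between day 1 and day 2. Only 119 of 12717 genes had a lower difference at day 2, and 333 had a lower one at day 1. Psma7, the gene of the subunit it replaces, had signals of 8363, 7691 and 8792, with differences of −0.12 and 0.07. A single probe set measures Psma8, so no other probe set checks it. Across the alternative ways of processing the difference at day 2 lay between −2.65 and −1.92. At day 1 it lay between −1.16 and −0.89, on either side of 2-fold. The summed ES marker signal was lower over the same days and the summed trophectoderm signal higher, with Eomes below its day 0 signal at day 2, and their part in the Psma8 difference was not tested. In the gene order of mouse chromosome 18, Psma8 lies between Ss18, a subunit gene of a chromatin remodeller, and Taf4b, a gene of a TFIID subunit. Ss18 had signals of 4745, 3748 and 3928, or −0.27 at day 2. Taf4b had 1168, 1102 and 1366, or 0.22. Neither neighbour passed 1.5-fold.

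**Figure D3:**
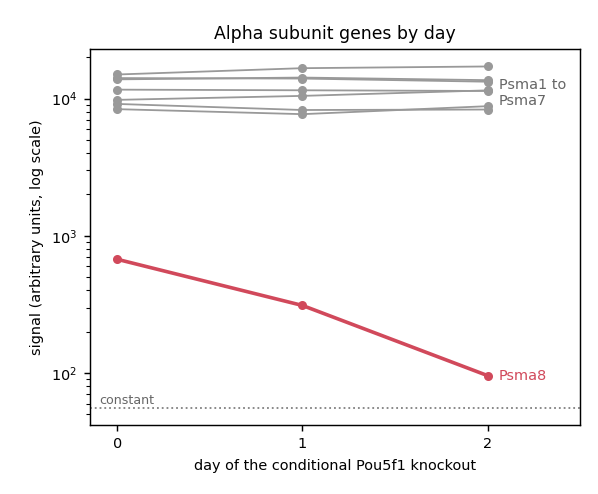
Signals of the 8 alpha subunit genes (vertical log axis, arbitrary units) at day 0, day 1 and day 2, 1 array each, with the constant of 55.9 as a dotted line. Psma8 (red) goes from 674 to 311 to 95.9, while Psma1 to Psma7 (grey) run nearly level.

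Of the beta subunit genes, 7 of 8 were measured, and they were the most even of the roles with more than 3 genes, from −0.03 (Psmb5) to 0.18 (Psmb2) at day 2, with a median of 0.07. Psmb5, which encodes the chymotrypsin-like subunit and the main target of proteasome inhibitor drugs, had signals of 9420.4, 9282 and 9204, a difference of −0.03 at day 2. Psmb6, the caspase-like subunit, had 10512, 10903 and 11068, or 0.07. Psmb7, the trypsin-like subunit, had 21301, 22869.7 and 23019, or 0.11. These catalytic genes were thus nearly level on all 3 arrays. Among the structural beta genes, Psmb1 had its highest signal at day 1, with 8371, 9515 and 8816. Psmb2 (5334, 5698 and 6030.3), Psmb3 (0.04 at day 2) and Psmb4 (0.13 at day 2) were within the probe set SD of 0.34 as well. Psmb2, at 0.18, was past the SD of 0.15 between bright probe sets of the same proteasome gene. The other probe sets of Psmb3 (−0.22) and Psmb4 (−0.36) pointed the other way at day 2, so the sign of these small differences is not settled. The −0.36 of Psmb4, also from a bright probe set, was past the SD of 0.34. Psmb11 lies next to Psmb5 on chromosome 14, and its signal was above the constant at day 0 and below it on both later days.

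In the base of the regulatory particle, the 6 ATPase genes spread further at day 2, from −0.25 (Psmc4) to 0.41 (Psmc3), with a median of 0.02. Psmc3 encodes an ATPase whose tail docks into the alpha ring and opens the gate. Its signals were 7041, 7489 and 9362, day 2 standing above both other days. This was 1.33-fold at day 2 and the highest difference among the 36 genes, and a single probe set gave it. Psmc4, another ATPase gene, had 12386, 11818 and 10430.1, with day 2 the lowest day. Its second probe set gave −0.01 at day 2 in place of −0.25, and 0.07 in place of −0.07 at day 1. Psmc2 was at 0.16, with 0.31 from a second bright probe set, while Psmc1 (−0.10), Psmc5 (0.09) and Psmc6 (−0.05) were nearer to 0. The 3 non-ATPase genes of the base were each slightly above 0 on both later days, as were 55.3% of all genes at day 1 and 54.1% at day 2. Psmd1, a scaffold subunit, was at 0.06 at day 2. Psmd2, the other large scaffold, which also receives ubiquitin shuttles, was at 0.14, and the ubiquitin receptor gene Psmd4 at 0.20, with signals of 8111, 8597 and 9344. A second bright probe set of Psmd4 gave −0.03 at day 1 and 0.08 at day 2, so its sign at day 1 is not settled.

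Of the 8 lid genes, 5 were above 0 and 3 below at day 2, beside 54.1% of all genes above 0, with a median of 0.06. Psmd14, the gene of the deubiquitinase, had signals of 10606, 11304 and 11202, or 0.08. Psmd7, its catalytically inactive partner, had 5559, 5530.1 and 5856, or 0.07. Psmd6 had the highest lid difference, with 9555, 10651 and 12371, each day above the one before, or 0.37 and 1.29-fold at day 2. Its other, dimmer probe set gave 0.26 at day 2 but −0.04 at day 1. Psmd8 was next at 0.28, with 6304, 6839 and 7643. The lowest was Psmd12, with 7771, 7711 and 6504, or −0.25, day 2 standing below both other days. Psmd3 differed at day 1 instead, with 3660.5, 3078 and 3543, or −0.25 at day 1 and −0.05 at day 2. Psmd11, which has 8 probe sets, was at 0.04 by its brightest, but other bright ones gave −0.28, −0.05 and 0.06, so its sign is not settled. Psmd13 was at −0.15.

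The 3 assembly chaperone genes were each above 0 at day 1, beside 55.3% of all genes. Of the 3, 2 had their highest signal then, beside 28.4% of all genes. Psmd10, also known as gankyrin, had signals of 1033, 1101 and 1269.9, or 0.09 at day 1 and 0.28 at day 2. Psmd5 was highest at day 1, with 3500.1, 4029.8 and 3309, or 0.20 at day 1 and −0.08 at day 2. Psmd9 was nearly level by its brightest probe set at 854, 891 and 875, or 0.06 at day 1 and 0.03 at day 2. Its dim second probe set, with 68.2, 129 and 71.8, gave 0.58 at day 1 and 0.04 at day 2.

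The core and regulatory particles had nearly equal medians. At day 1 the median was 0.04 for the 15 measured core genes (95% interval −0.03 to 0.10) and 0.04 for the 17 regulatory particle genes (−0.05 to 0.09). At day 2 both medians were 0.07, with intervals of −0.03 to 0.13 and −0.05 to 0.16. The spread was wider in the regulatory particle, with a middle 50% of 0.21 at day 2 against 0.15 in the core. The genes are not replicates, so the difference between these spreads has no test. Scaling each array on its ribosomal protein genes instead shifted the all-gene median by −0.17 at day 1 and −0.16 at day 2. Both particles were then at −0.13 at day 1, and at day 2 the core was at −0.085 and the regulatory particle at −0.082. The sign of these small medians depends on the scaling. By the day of the highest signal, 11 of the 35 genes peaked at day 0, 7 at day 1 and 17 at day 2. Of all genes measured 32.2%, 28.4% and 39.3% did so.

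The 36 genes have 74 probe sets, and 64 of them were kept. Those of mean signal 1000 or more, 46 probe sets of 33 genes, lay between −0.36 and 0.41 at day 2, with an SD of 0.17 over the probe sets. The 18 dimmer ones lay between −2.27 and 0.62, and the 17 without Psma8 had an SD of 0.26. For genes with several bright probe sets, the pooled SD between probe sets of 1 gene was 0.09 at day 1 and 0.15 at day 2. Psmd13 shows the contrast. Its probe sets above 1000 gave −0.15 and 0.01 at day 2, and its dim ones −0.42 and 0.62, the latter with signals of 117, 105 and 209.7. Psma6 had 0.39 from a dim probe set and −0.15 and −0.09 from bright ones.

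**Figure D4:**
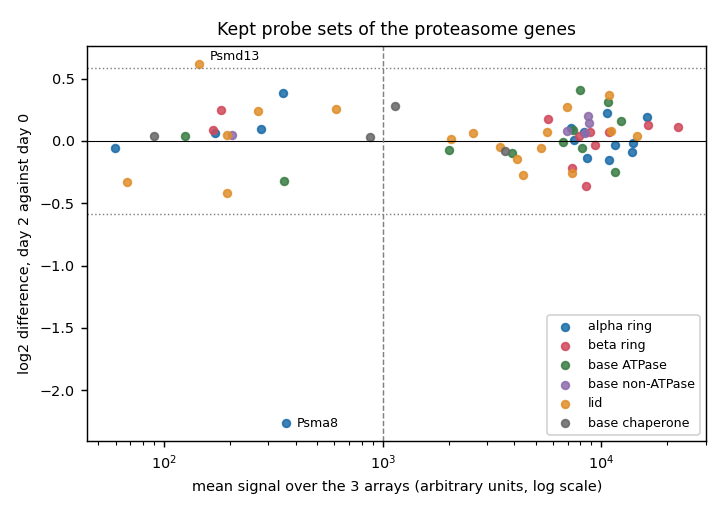
Log2 difference at day 2 against day 0 (vertical) of each kept probe set of the proteasome genes by its mean signal over the 3 arrays (horizontal log axis, arbitrary units), coloured by role, with 1.5-fold as dotted lines and a signal of 1000 as a dashed line. Probe sets to the right of the dashed line lie between −0.36 and 0.41, and Psma8 stands alone at −2.27.

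Genes that assemble, activate or regulate the proteasome were described from a list. Of 30 such genes listed, 21 were measured. Psmb8 was below the constant, and the other 8 were not analysed here. At day 2, 2 of the 21 were at least 1.5-fold higher and 2 lower, beside 14.6% and 11.8% of all genes. The median was 0.02. At day 1 there were 1 higher and 1 lower, beside 9.62% and 7.29% of all genes.

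Psme4, which encodes PA200, an activator that caps the core without ATP, had signals of 6012, 5460 and 3481, a difference of −0.78 at day 2. Day 2 stood below both other days in each of its 3 bright probe sets, which gave −0.78, −0.70 and −0.67. The mean over its 5 kept probe sets was −0.42, since the dim ones gave 0.05 and −0.03. The other activator genes, Psme1 (0.33) and Psme3 (0.14), were within 1.5-fold at day 2, as was the inhibitor gene Psmf1 (0.28). Dimmer Psmf1 probe sets gave 0.004, −0.005 and −0.43, and another Psme3 probe set gave −0.10, so neither sign is settled. Psmg4, one of the chaperones that build the alpha ring, had 1918, 1187 and 1214, or −0.67 at day 1 and −0.64 at day 2, both later days below day 0. Its partners Psmg3 (0.20) and Psmg2 (0.23) were higher and Psmg1 (−0.46) lower at day 2, and Pomp, which guides the beta ring, was at 0.02. Psmg2 had −0.28 at day 2 without the probe sets whose names end in _x_at, _s_at or _a_at, so its sign is not settled.

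Ecpas, the gene of a scaffold that holds core and regulatory particle together, was dim, with 148, 359 and 417. Its difference was 1.02 at day 1 and 1.21 at day 2. Its 4 kept probe sets ranged from −0.07 to 1.02 at day 1 and from 0.21 to 1.27 at day 2, and their mean was 0.44 at day 1, under 1.5-fold, and 0.84 at day 2. Ubqln1, a shuttle that brings ubiquitinated proteins to the proteasome, had 5498, 6317 and 8314, or 0.59 at day 2, each day above the one before. Its other probe set gave 0.98, and with equal ribosomal protein medians the value was 0.43. Nfe2l1, a transcription factor known to induce proteasome genes when activity is low, had 1378, 943 and 1288, with day 1 the lowest, or −0.52 at day 1 and −0.09 at day 2. With equal ribosomal protein medians it was at −0.69 at day 1, past 1.5-fold. Nfe2l2, a related factor of the oxidative stress response, was at 0.27 and 0.25. The immunoproteasome genes that interferon induces, Psmb9 (154, 168 and 121) and Psmb10 (605, 536 and 503), were at −0.25 and −0.24 at day 2.

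**Figure D5:**
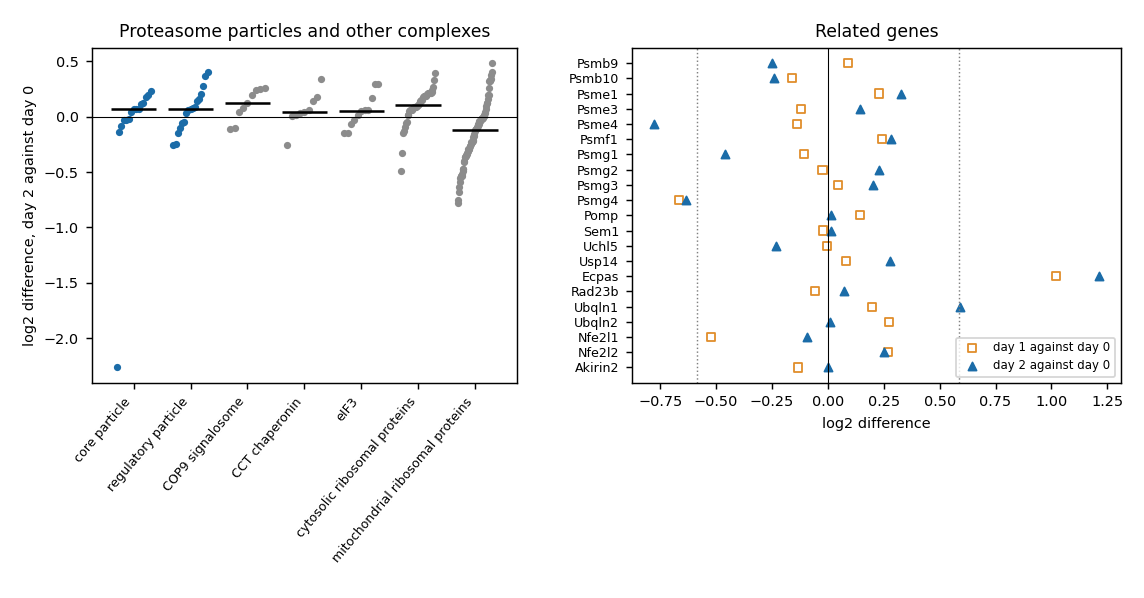
Left, log2 difference at day 2 against day 0 of each gene (points) of the core particle, the regulatory particle and 5 other complexes, with medians as black bars. Right, differences of 21 related genes at day 1 (squares) and day 2 (triangles) against day 0, with 1.5-fold as dotted lines. The particles lie about 0 like the COP9, CCT and eIF3 genes, Psma8 is the single point near −2.27 on the left, and Ecpas is furthest to the right at 1.21.

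Other large complexes were measured on the same arrays. The COP9 signalosome, whose subunits are relatives of the lid, had a median of 0.13 at day 2 over 9 genes (95% interval −0.10 to 0.25). The CCT chaperonin had 0.04 over 9 (0.003 to 0.18) and the translation factor eIF3 0.05 over 11 (−0.14 to 0.29). In any of them 0 genes were past 1.5-fold. The 38 cytosolic ribosomal proteins had a median of 0.11 (0.06 to 0.18) and also 0 past 1.5-fold. The 76 mitochondrial ribosomal proteins had a median of −0.12 (95% interval −0.24 to −0.04) with 5 at least 1.5-fold lower and 0 higher, beside 11.8% and 14.6% of all genes. The intervals run over genes and cover neither cultures nor arrays, and no test compares these lists with the proteasome genes.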

How the data were processed

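Total RNA of 3 samples, 1 per day, was measured on Affymetrix arrays after biotin labelling, per the labels. The values deposited by the authors are linear intensities, 1 per probe set, made with MAS5 per the submitters' processing notes. Its version and settings are not given in the sources used here. The day 2 column holds 64 control probe sets that the other columns lack, and they were left out. The labels do not say whether that array was exported separately. The arrays were scaled to a common 2% trimmed mean. Signals were analysed as log2(signal + 55.9), the constant being the 40th percentile of all signals, and 26925 of 45037 probe sets with a mean signal at or above it were kept. Genes were named from the platform annotation from probe sets with 1 gene symbol, 34945 in all, while 932 have several and 9160 have none in the table. Of the 34945, 34741 matched the gene table of GRCm38.p6 by Entrez identifier. Symbols such as Psmc3ip, with letters after the number, did not meet the rule. Named were Pou5f1, the 36 genes of the rule, and, with values where past 1.5-fold, the genes of the related list. Related genes under 1.5-fold, single markers and the neighbours of Psma8 were named after their values were seen. The members, lists and size rules were chosen with earlier results of these data known. Median intervals are exact binomial 95% intervals over genes and cover neither cultures nor arrays. Processing was tested on simulated arrays with known folds. Promoter motifs were searched on both strands. Alternatives changed the constant, the filter, the probe set that stands for a gene, and the scaling. Python 3.11.15 with numpy 2.4.6, pandas 2.3.3, scipy 1.17.1 and matplotlib 3.10.9 was used.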

Additional observations from a re-analysis of the deposited data

How the results depend on the processing

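With 8 alternative settings, 65 of 72 medians of the proteasome genes stayed inside their main interval, as 92 of 96 counts stayed within 1.5 times, and no called gene changed sign. Equal medians of ribosomal protein genes gave −0.12 for all 35 genes at day 1 against day 0, −0.13 for core genes and −0.13 for regulatory particle genes, and −0.085, −0.085 and −0.082 in the same order at day 2 against day 0. Quantile normalisation gave −0.035 for the core at day 1. Psma8 counted as 1 gene at least 2-fold lower at day 1, in place of 0, with a constant 4 times smaller, after quantile normalisation and with equal ribosomal protein medians. Without a filter on dim probe sets Psmb11 joined it, which made 2 genes at least 1.5-fold lower at day 1. In each setting Psma8 was the 1 member at least 2-fold lower at day 2 against day 0. The cause of these shifts was not tested beyond what each setting changes. No paired analysis was possible because each day has 1 array. Leaving out an array would leave a day with none.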
